A study of Mus musculus with 14 samples.

Results

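The 3 embryos described here were the untreated controls of a series of 14 mouse somatic cell nuclear transfer (SCNT) embryos. They were chosen by their label, control 1, control 2 and control 3, and make up 3 of the 14 libraries. In SCNT, the nucleus of a somatic cell is placed in an egg whose own chromosomes have been removed, and the egg is then activated to divide. The other 11 embryos had received trichostatin A, vitamin C or both, and here they serve only as further libraries of the same stage.

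All embryos were of the B6D2F1 strain and were collected singly at the 2-cell stage, 28 h after nuclear transfer. Per the study's methods, cumulus cells, the somatic cells that surround the egg, were the nuclear donors. The reconstructed eggs were activated for 6 h in medium with 5 mM SrCl2, 2 mM EGTA, 5 µg/ml cytochalasin B and 0.3% dBSA, and the controls were then cultured without the small molecules. The zona pellucida was removed from each embryo, RNA was eluted in 9 µl, and 2 µl of it went into a NuGEN Ovation Single Cell library with PCR steps of 14 and 12 cycles. No fertilized embryo, egg or donor cell was among the 14 libraries, so the controls have no reference stage beside them.

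A mouse egg is transcriptionally silent and lives on RNA that the growing oocyte stored. After activation this maternal RNA is translated and degraded, while a first minor and then a major wave of transcription starts from the embryonic genome around the 2-cell stage. A 2-cell embryo therefore holds both kinds of RNA, and in an SCNT embryo the new RNA has to come from a donor nucleus. A level from a whole embryo cannot tell fewer transcribing cells from less RNA per cell.

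The values were RPKM (read counts divided by the transcript length in kilobases and by the library total) for 25650 RefSeq transcript entries, of which 25250 matched a gene symbol. The read totals recovered from these values were between 5423162 and 13589389 per embryo. Each control was sequenced in a different library pool, and each pool in its own lane, so embryo, library and pool cannot be told apart. A count of 0 allows up to 3 reads, which on a transcript of 1 kilobase was 0.553 RPKM in control 1, 0.437 in control 2 and 0.221 in control 3; such limits cover counting error only.

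Before the levels, the promoters of 3 genes are shown, because they stand for the 3 situations met in these embryos. Tent4a, a poly(A) polymerase gene, had nearly the same level in all 3 embryos. Omt2a, an oocyte maturation transcript, was abundant in all 3. Zscan4c, a member of a family expressed at the 2-cell stage, was found in 1 embryo. The windows are the RefSeq promoters of assembly GRCm38.p6, 250 bases before to 50 after the gene start, written 5′ to 3′ on the strand of the gene. Capitals mark CG dinucleotides and the letters TATAAA (the core of a TATA box), CACGTG (an E-box, which itself holds a CG) and GGATTA (the core of a homeodomain motif), on either strand.
Tent4a: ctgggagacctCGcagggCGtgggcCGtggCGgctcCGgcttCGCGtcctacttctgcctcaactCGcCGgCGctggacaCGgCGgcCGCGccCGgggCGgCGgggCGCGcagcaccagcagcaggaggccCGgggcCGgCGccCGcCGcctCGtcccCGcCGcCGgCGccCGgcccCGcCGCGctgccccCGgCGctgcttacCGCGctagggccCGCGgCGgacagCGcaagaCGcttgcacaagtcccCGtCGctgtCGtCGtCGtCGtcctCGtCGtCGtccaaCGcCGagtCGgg
Omt2a: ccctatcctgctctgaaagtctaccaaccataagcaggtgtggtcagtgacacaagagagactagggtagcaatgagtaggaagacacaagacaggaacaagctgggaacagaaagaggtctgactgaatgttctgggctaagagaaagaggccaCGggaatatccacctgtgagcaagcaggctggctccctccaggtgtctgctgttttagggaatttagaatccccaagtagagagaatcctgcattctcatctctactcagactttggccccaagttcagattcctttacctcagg
Zscan4c: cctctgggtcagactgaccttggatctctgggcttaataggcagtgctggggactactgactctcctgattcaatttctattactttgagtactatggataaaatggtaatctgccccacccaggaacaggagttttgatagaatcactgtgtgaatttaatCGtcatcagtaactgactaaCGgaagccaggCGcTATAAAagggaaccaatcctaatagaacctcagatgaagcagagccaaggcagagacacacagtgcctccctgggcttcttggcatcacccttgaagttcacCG
The Tent4a window (chr13:69533815-69534114, minus strand) held 54 CG dinucleotides and none of the 3 motifs. It also ran without a stop codon in 1 reading frame, so it may hold coding sequence. Whether it covers the promoter was not tested. The Omt2a window (chr9:78313999-78314298, minus strand) held 1 CG and no motif. The Zscan4c window (chr7:11005495-11005794, plus strand) held 4 CG and a TATAAA. Among all 16211 genes matched to a promoter, the median was 14 CG per 300 bases, and 13.1% held TATAAA, 8.30% CACGTG and 6.42% GGATTA.

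Transcripts were counted as detected at 1 RPKM or more. By this count control 1 had 5197 entries, control 2 had 3819 and control 3 had 5439. Control 2 was the lowest although its library was deeper than that of control 1. Above 0 the 3 embryos were closer, at 8726, 8841 and 9557 entries, and 56.8% of those of control 2 lay between 0 and 1 RPKM, against 40.4% in control 1 and 43.1% in control 3. Such an entry rested on a median of 2, 2 and 3 reads in controls 1, 2 and 3. When the reads of all 3 were thinned to the shallowest library, 5197, 3812 and 5434 entries remained at the threshold, with control 2 again the lowest. Above 0 the thinned libraries held 8726, 8413 and 8350 entries, so by that count control 3 was the lowest.

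In all, 8229 entries were detected in at least 1 control. Of these, 1984 (24.1%) were detected in all 3, 2258 (27.4%) in exactly 2 and 3987 (48.5%) in only 1. Control 1 alone had 1484 of the last class, control 2 had 828 and control 3 had 1675. The entries missing from a single embryo were also unequal, with 1251 missing only from control 2, 529 only from control 1 and 478 only from control 3.

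**Figure D1:**
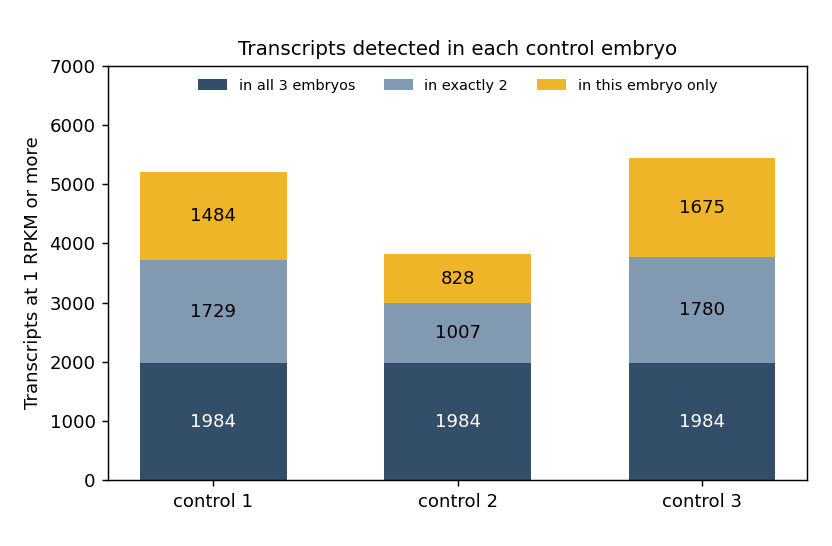
Number of transcript entries at 1 RPKM or more in each control embryo (vertical axis), stacked by whether the entry also reached 1 RPKM in the other controls. The 1984 shared entries form the base of every bar, and control 2 has both the lowest total and the fewest entries of its own (828).

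The shared transcripts carried most of the RNA. The 1984 entries of all 3 embryos held 54.1%, 58.6% and 56.7% of the summed RPKM of controls 1, 2 and 3, and 64.9%, 71.7% and 69.2% of their reads. Those of exactly 2 embryos held 25.1%, 20.7% and 21.9% of the RPKM. Those of only 1 embryo held 20.7%, 20.6% and 21.3%, a nearly equal part in each control. Measured in the embryo where it was highest, the median entry of all 3 reached 102 RPKM, that of exactly 2 reached 45.8 RPKM and that of only 1 reached 15.4 RPKM.

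An entry found in only 1 embryo was often not a weak one. In control 1 these entries had a median of 18.8 RPKM and 267 reads, in control 2 a median of 12.8 RPKM and 198.5 reads, and in control 3 a median of 14.3 RPKM and 563 reads. These are recovered reads, which can be too low for entries above 0 in few embryos. Between 34.9% and 40.6% of them had no read in either other control. At 100 RPKM or more, a level that 919, 945 and 767 entries reached in controls 1, 2 and 3, the classes were still further apart. Of the 1951 entries at that level in some control, 73.8% reached it in only 1 and 8.66% in all 3.

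The 5 highest genes found in only 1 embryo were as follows. In control 1 they were Slc17a5 (a lysosomal sialic acid transporter, 932 RPKM), an unnamed entry NM_011451 (833 RPKM), Ddt (D-dopachrome tautomerase, 787 RPKM), Nol11 (a nucleolar protein, 657 RPKM) and Znrf1 (a ubiquitin ligase, 590 RPKM). Slc17a5, NM_011451 and Ddt had no read in controls 2 and 3, and Nol11 and Znrf1 were at most 0.309 RPKM there. In control 2 the first was Ndufs8, a subunit of respiratory complex I, at 7370 RPKM summed over 3 entries, with 0 reads in both other controls. The 2 longer entries each had 3214 reads, so reads of a gene may be counted for more than 1 of its entries. It was followed by Tubd1 (delta-tubulin, 1213 RPKM), H2ac12 (a histone H2A gene, 999.8 RPKM), Shoc2 (a scaffold of the RAS pathway, 962 RPKM) and 1190005I06Rik (928 RPKM). Control 3 was led by Dync1i2, a dynein intermediate chain, at 968 RPKM, and by Rusc2 (821 RPKM), Sptbn4 (a spectrin, 786 RPKM), Zfp691 (a zinc finger protein, 708 RPKM) and Jkamp (683 RPKM). All of these were below 1 RPKM in both other controls, and several rested on many reads, such as the 3587 reads of the 8737-base entry of Sptbn4 in control 3.

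Some of the extreme RPKM values came from very short lengths. A length that gave whole reads could be found for all 17538 entries above 0 in any of the 14 embryos. Lengths were chosen to give whole reads, so this is no check of them. For an entry above 0 in few embryos, the recovered length and reads can be smaller than the true ones. Lengths were compared for entries above 0 in at least 4 embryos. For genes with a single entry the length was close to the full transcript (a median of 99.9% of the longest mm9 GENCODE transcript, n = 7283, with 4 under 300 bases). For genes with 2 or more entries, 249 of 2934 (8.49%) were under 300 bases, as for Ndufs8, whose entry NM_001271443 had been scaled to 65 bases. The 1027-base entry NM_144870 of the same gene was at 456 RPKM in control 2 and at 0 in the others. Ndufs8 thus had no read for any entry in controls 1 and 3, although it reached 1 RPKM in 8 of the 11 other embryos. Its height of 7370 RPKM in control 2 depended on the short entry. The same held for other genes of only 1 embryo. Shoc2 stood at 962 RPKM in control 2 on a 138-base entry, while its 4075-base entry was at 0 there. Znrf1 in control 1 and Tubd1 in control 2 rested on entries of 124 and 439 bases, with their longer entries below 1 RPKM. In their longest entries, Slc17a5, Nol11, Dync1i2, Rusc2, Sptbn4, Zfp691 and Jkamp were at 21.0 to 86.1 RPKM in the embryo that held them.

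The most abundant transcript of all 3 embryos was Ccdc82, a coiled-coil domain gene, as entry NM_025534. It stood at 12255 RPKM in control 1, 14146 in control 2 and 16648 in control 3 (mean 14350 ± 2204 SD, n = 3). It alone took 3.43%, 3.92% and 4.63% of the summed RPKM, on a length of 4642 bases. No other gene came near it: the next by the median, Dbf4, was at 3274 RPKM.

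Of the 25 genes with the highest median, 5 were members of the maternal lists and 1 more, Khdc1b, is given with them. Spin1 (chr13:51196267-51247915, mm9), a histone reader abundant in oocytes, was at 2360, 2789 and 4470 RPKM in controls 1, 2 and 3. Eif4e1b (chr13:54885359-54889820), the oocyte form of the cap-binding protein eIF4E, was at 2061, 1800 and 1621 RPKM. Zfp57 (chr17:37138108-37147580), which protects methylation imprints, was at 1903, 600.1 and 2113 RPKM as a gene, and its 2088-base entry NM_001168502 at 181, 593 and 228 RPKM. Khdc1b (chr1:21373637-21376465), a KH-domain gene, was at 1234.1, 1263 and 1924 RPKM. Zbed3 (chr13:96095192-96107796), a member of the subcortical maternal complex, was at 1219, 941 and 3072 RPKM. Omt2a (chr9:78159779-78162604), whose promoter is printed above, was at 874, 1022 and 2469 RPKM. Each of these 6 genes was far above the threshold in every control, and control 3 had the highest gene value for all but Eif4e1b. For Zfp57 this depended on short entries, and its 2088-base entry was highest in control 2. The 1413-base entry of Eif4e1b was at 447, 378 and 548 RPKM in controls 1, 2 and 3, and thus highest in control 3.

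The rest of the 25 were on none of the maternal or newly made lists. Lars2, the mitochondrial leucyl-tRNA synthetase, was at 1337, 674 and 2037 RPKM, and Ccdc6, a coiled-coil gene, at 1270, 1142 and 1583 RPKM. Bmi1, a component of Polycomb repressive complex 1, was at 958, 764 and 356 RPKM, and Mdm4, an inhibitor of p53, at 735, 1580 and 606 RPKM. The histone gene H2bc12 was at 655, 885 and 826 RPKM. Tlcd2, a membrane lipid regulator, was at 1035, 929 and 967 RPKM, and Tent4a at 908, 871 and 873 RPKM. The endoplasmic reticulum chaperones Hspa5, at 789, 360 and 612 RPKM, and Canx, at 926, 56.1 and 758 RPKM, were both lowest in control 2 as genes. The 2616-base entry of Hspa5 was at 514, 275 and 150 RPKM and thus lowest in control 3. The remaining genes included Cdv3, Fam241b, Anp32b, Gm7102 and the unnamed entry NM_001033491, all with medians of 612 RPKM or more, and 3 genes with short entries.

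These 3 genes were Dbf4, Eif5a and Mia2. Dbf4, the activator of the replication kinase Cdc7, was at 327, 3274 and 3923 RPKM as a gene, but its entry NM_001190717 of 2441 bases was at 327, 370 and 437 RPKM, and the rest came from an entry of 46 bases. Eif5a, a translation factor, was at 505, 2246 and 2585 RPKM. Mia2, which acts in export from the endoplasmic reticulum, was at 83.0, 2812 and 1039 RPKM, while its 2831-base entry NM_001165254 was at 83.0, 218 and 68.9 RPKM. In all, 6 of the 25 genes had an entry under 300 bases, Zfp57 and Hspa5 among them.

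The abundant genes were shared across embryos but not ranked alike. Of the 25 genes, 23 were at 100 RPKM or more in all 3 controls, 11 lay within a factor of 2 between the lowest and the highest embryo, and 3 differed by more than 10 times. All but H2bc12 reached 1 RPKM in each of the 11 other embryos of the series, and H2bc12 did so in 10. In contrast, only 19 of the 100 highest genes of any control were among the 100 highest of all 3, and the 3 lists together named 236 genes. In the order by the median over the embryos, the first 10 entries by the median held 7.76 ± 1.89% (SD, n = 3) of the summed RPKM, the first 100 held 19.4 ± 2.24% and the first 1000 held 49.6 ± 2.70%. In each embryo's own order the first 100 entries held more, 25.6%, 33.7% and 31.0% in controls 1, 2 and 3, and the first 1000 held 67.5%, 82.7% and 70.1%.

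Genes listed as maternal were compared with genes listed as newly made, since the controls have no egg or transcription-blocked embryo beside them. For a gene on either kind of list, the values cannot tell stored from new RNA. Of 95 measured genes on 6 maternal lists, 42 were at 1 RPKM or more in all 3 controls, 17 in 2, 23 in 1 and 13 in none. Of 57 measured genes on 3 lists taken as newly made RNA, 10 were detected in all 3, 14 in 2, 17 in 1 and 16 in none. Of these 10, 7 were regulators of genome activation, several of which are also stored in the egg. Over all 20636 genes, 1965 (9.52%) were detected in all 3. The maternal lists took 2.62%, 2.53% and 4.14% of the reads of controls 1, 2 and 3, and the newly made lists 0.330%, 0.280% and 0.558%, which is a ratio of 7.96, 9.03 and 7.42. The regulators gave 0.221%, 0.267% and 0.398% of the reads, most of the latter share, and the 2 lists of genes switched on at the 2-cell stage gave 0.108%, 0.0127% and 0.160%. The ratio is therefore one between lists, not a measure of stored against new molecules. In summed RPKM the ratio was 9.46, 19.4 and 3.58, and without Dppa4, whose 62-base entry was at 4880.5 RPKM in control 3, it was 9.51, 19.5 and 12.0. The maternal lists exceeded the other lists in every control on both scales.

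**Figure D2:**
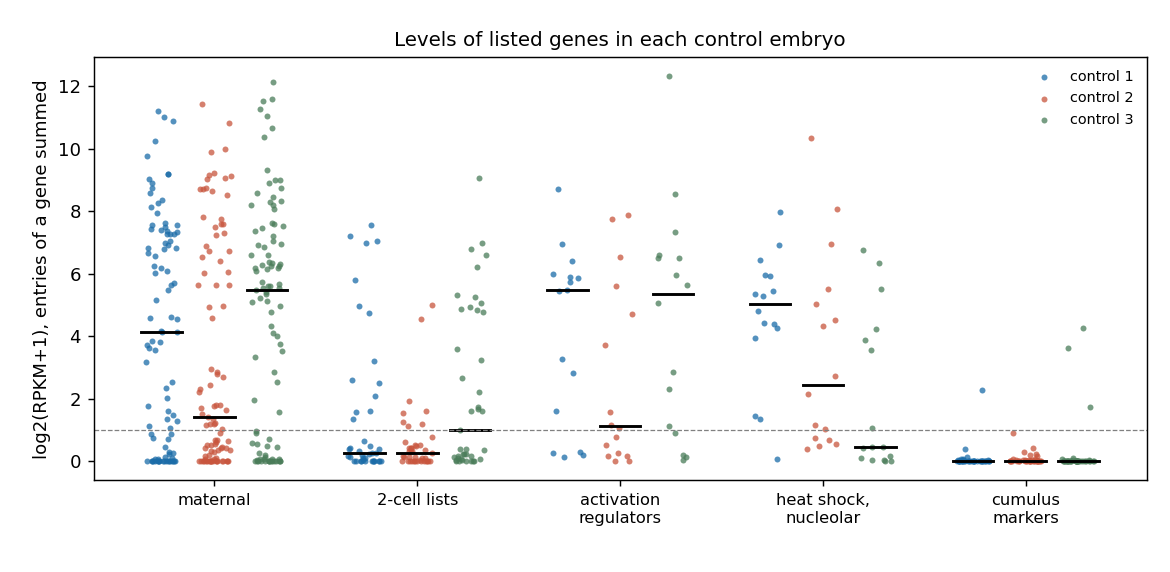
Levels of the listed genes in each control embryo as log2(RPKM+1), with the entries of a gene summed. Each point is 1 gene, black bars are medians within an embryo, and the dashed line marks 1 RPKM; the maternal genes range widely in every embryo, the cumulus markers lie at or near 0, and control 2 has the lowest median for the maternal genes (1.65 RPKM).

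The genes that store, translate and remove maternal mRNA were the most regularly present, with 11 of 18 in all 3 controls. Besides Spin1 and Eif4e1b, they included Btg4 (chr9:50924106-50927980), the adaptor that brings the CCR4-NOT deadenylase to maternal mRNA, at 579, 520 and 1338 RPKM. The deadenylase genes followed, with Cnot6l at 167, 428 and 511 RPKM and Cnot7 at 380, 420 and 383 RPKM. Rnf114, a ubiquitin ligase, was at 173, 369 and 312 RPKM. Slbp, which binds the stem-loop of histone mRNA, was at 196, 402 and 52.2 RPKM, Cnot8 at 130, 559 and 192 RPKM, Lsm14b at 74.7, 152 and 42.1 RPKM, and Cpeb1, a regulator of cytoplasmic polyadenylation, at 11.3, 29.5 and 30.4 RPKM. Ybx2, the egg's abundant mRNA-packaging protein, split the embryos, at 152 and 509 RPKM in controls 1 and 3 and 1.21 RPKM in control 2. Zar1, an egg mRNA-binding gene, was detected in control 2 alone, at 181 RPKM. Patl2 and Zar1l were at 0 in all 3.

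Genes of maternal chromatin and oocyte transcription were detected in all 3 controls in 10 of 18 cases. After Zfp57, the highest were Uhrf1, the partner of Dnmt1 in maintaining DNA methylation, at 326, 193 and 318 RPKM (36.5, 192 and 89.5 RPKM in its 3570-base entry NM_010931), and Trim28, a corepressor, at 161, 156 and 74.8 RPKM. Brwd1, a bromodomain gene of the oocyte, was at 125, 104.1 and 175 RPKM, Ctcf, the insulator protein, at 67.0, 217 and 67.6 RPKM, and Hsf1, the heat shock factor, at 243, 48.4 and 16.2 RPKM. These 6 were above 10 RPKM in every embryo. Dppa3, a maternal protector of DNA methylation, was at 1.80, 190 and 39.6 RPKM, and Npm2, the egg's nucleoplasmin, at 476, 0.438 and 45.2 RPKM. H1f8, the oocyte linker histone, and the oocyte factors Figla and Sohlh2 were at 0 in all 3 controls.

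The zona pellucida and oocyte-secreted genes were detected in all 3 controls in 4 of 11 cases with a summed level of 725, 110 and 1494 RPKM, lowest in control 2. Bmp15 (chrX:5891225-5897839), an oocyte growth factor, was at 520, 91.3 and 474 RPKM, and its relative Gdf9 (chr11:53244525-53251406) at 110, 2.42 and 130 RPKM. Oosp1, an oocyte-secreted protein, was at 72.4, 2.503 and 351 RPKM, Oosp3 at 0.228, 6.68 and 291 RPKM, and Plat, tissue plasminogen activator, at 1.17, 3.62 and 18.9 RPKM. Zp1 was at 2.40, 0.606 and 82.3 RPKM. The zona genes Zp2, at 145 RPKM, and Zp3, at 4.76 RPKM, were each above the threshold in 1 control, control 3 and control 1 respectively.

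Of the subcortical maternal complex and Nlrp genes, 6 of 17 were in all 3 controls. Zbed3 exceeded the others by far. Nlrp4f was at 64.3, 65.3 and 1.96 RPKM, Nlrp4e at 22.3, 48.6 and 74.5 RPKM, and Nlrp14 at 23.3, 1.07 and 114 RPKM. Nlrp9a was at 51.5, 0.373 and 71.8 RPKM. Nlrp5, the scaffold of the complex, was at 16.5, 0.124 and 34.04 RPKM, and its partners Tle6 (0.366, 0.434 and 47.2 RPKM) and Padi6 (1.42, 0.562 and 80.2 RPKM) were high only in control 3. Ooep stayed below 1 RPKM and Khdc3 was at 0 in all 3. The 50-base reads of Nlrp paralogs can be shared, so single members are uncertain.

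The oocyte multigene families were present in all 3 controls in 6 of 16 cases. The neighbouring copies Omt2a and Omt2b, whose reads cannot be fully separated, were both high, the latter at 578, 533 and 2919 RPKM. Oog3 was at 165, 576 and 637 RPKM and Oog1 at 309, 118 and 197 RPKM. Tcl1, a coactivator of the kinase Akt, was at 424, 6.27 and 269 RPKM, and Oas1e at 121, 2.29 and 121 RPKM. In contrast, Oog4 (113 RPKM) and Oog2 (101 RPKM) passed the threshold in control 1 alone, and Tcl1b1 (296 RPKM) in control 3 alone.

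Among the meiotic cell cycle genes, 5 of 15 were in all 3 controls. Wee2, the oocyte kinase that restrains CDK1, was at 187, 422 and 426 RPKM, and Ccnb1, cyclin B1, at 154, 224 and 95.6 RPKM. Plk1, a mitotic kinase, was at 186, 5.42 and 96.3 RPKM, and Cdc20, an activator of the anaphase-promoting complex, at 279, 64.3 and 43.4 RPKM. Aurka, a spindle kinase, was at 178, 0.535 and 184 RPKM, and its cofactor Tacc3 at 112, 0.888 and 71.5 RPKM. Both were under the threshold in control 2 alone. Ccnb2 was at 75.8 RPKM in control 3 and at 0 in the others.

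Genes switched on at the 2-cell stage were mostly low, and they were shared by all 3 controls about as seldom as all genes. On the 2 lists of such genes, 3 of 41 were detected in all 3 controls, 10 in 2, 13 in 1 and 15 in none. The share in all 3 (7.32%) was near that of all genes (9.52%), while 63.4% were detected in at least 1 control against 36.4% of all genes. Their median gene was at 0.210, 0.202 and 0.991 RPKM in controls 1, 2 and 3. They took 0.108%, 0.0127% and 0.160% of the reads. Control 2 was again the lowest, with 8 of the 41 at the threshold against 14 in control 1 and 20 in control 3.

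The 3 genes found in all controls were Tcstv1, Sp110 and Pramel17. Tcstv1, a gene of a 2-cell-specific family, was at 54.8, 1.38 and 73.1 RPKM. Sp110 (chr1:87473474-87495392), a nuclear body protein, was at 187, 22.2 and 536 RPKM, and its 1913-base entry NM_030194 at 179, 18.7 and 108 RPKM. Pramel17 was at 30.6, 30.8 and 2.05 RPKM. The other single genes of the list with the highest medians were Tmem92 (146, 0.266 and 110 RPKM), Spz1 (131, 0.273 and 37.0 RPKM), Zfp352 (0.326, 2.83 and 125 RPKM) and Gm5662 (5.01, 0 and 2.36 RPKM). Tmem92 and Spz1 thus shared the pattern of being under the threshold in control 2, while Zfp352, a zinc finger gene of the 2-cell stage, was under it in control 1.

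Of 19 measured genes in the multigene families of the 2-cell stage, 8 were detected in only 1 control, 7 in none, 3 in 2 and 1 in all 3. Over all 20636 genes, 3456 were detected in only 1 control, 13126 in none, 2089 in 2 and 1965 in all 3. Zscan4c, Zscan4d and Zscan4f, telomere-associated zinc finger genes, were at 26.2, 29.4 and 32.2 RPKM in control 3 and had no read in controls 1 and 2. Tdpoz2 was at 3.22, 0.254 and 2.06 RPKM, Tdpoz4 at 0.331, 1.31 and 28.4 RPKM, and Tdpoz1 stayed below 1 RPKM in all 3. Pramel7 was at 1.98, 0.235 and 3.64 RPKM, and its relative Pramel6 at 125 RPKM in control 1 alone. Usp17ld, a deubiquitinase gene, was at 25.8 RPKM in control 1 alone, and Usp17lb at 39.3 RPKM in control 3 alone. These families consist of near-identical copies, so that a value of 1 member may hold reads of another.

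The regulators of genome activation were more often present, 7 of 16 in all 3 controls. Yap1, a coactivator stored in the egg, was at 84.6, 236 and 372 RPKM. Obox5, an oocyte-expressed homeobox gene, was at 419, 91.7 and 161 RPKM, and Kdm5b, a demethylase of histone H3 lysine 4, at 42.6, 214 and 89.1 RPKM. Klf17, a Krüppel-like factor, was at 58.9, 25.3 and 89.98 RPKM, and Nr5a2, an orphan nuclear receptor, at 43.8, 1.24 and 48.7 RPKM. Nfya, a subunit of the CCAAT-binding factor NF-Y, was at 62.5, 0.121 and 96.8 RPKM. Dppa2 was at 52.0, 12.1 and 32.6 RPKM, while its partner Dppa4 was at 8.74, 1.99 and 5088 RPKM. The 1534-base entry of Dppa4 was at 5.77, 1.99 and 208 RPKM, so control 3 was the highest without the short entry too. Several of these genes are known from eggs as well, and these values cannot tell a stored copy from a new one.

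Heat shock and nucleolar genes, which are both stored in the egg and transcribed early, were kept apart, and 7 of 16 were in all 3 controls. Here control 3 was the lowest, with 7 genes at the threshold against 15 in control 1 and 11 in control 2, and the summed level was 798, 1823 and 278 RPKM. Hspa8, a constitutive heat shock protein, was at 119, 270 and 10.8 RPKM, and Npm1, nucleophosmin, at 18.3, 1299 and 108 RPKM, of which its 1422-base entry NM_008722 gave 18.3, 439 and 107 RPKM. Ddx21, a nucleolar helicase, was at 60.8, 123 and 1.09 RPKM, and Ncl, nucleolin, at 59.2, 44.2 and 80.7 RPKM. Dkc1, the pseudouridine synthase, was at 42.7, 19.0 and 44.4 RPKM, and Fbl, fibrillarin, at 26.9, 32.1 and 0.0635 RPKM. The inducible copies Hspa1a (20.1, 0.312 and 0 RPKM) and Hspa1b (20.5, 0.674 and 0 RPKM), which share most of their sequence, passed the threshold in control 1 alone.

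Few markers of the nuclear donor were detected. Of 38 cumulus and granulosa cell markers, 35 were below 1 RPKM in every control and 22 had no read in any. Over all 20636 genes, 13126 were below 1 RPKM in every control and 8657 had no read in any. Genes used by most cells can be at 0 as well in these libraries, as were Ndufs1 and Ndufs3 of respiratory complex I in all 3. On the oxidative phosphorylation list, which also holds assembly factors and tissue-restricted forms, 38 of 97 genes were at 0. A 0 is therefore not read as absence. The exceptions were Serpine2, a protease inhibitor, at 3.86, 0 and 11.4 RPKM, Amhr2, the receptor of anti-Müllerian hormone, at 0, 0.150 and 18.4 RPKM, and Kitl, the Kit ligand, at 0.305, 0.0535 and 2.36 RPKM. Their summed level over the whole list was 4.46, 2.14 and 32.3 RPKM, against 15981, 13622 and 25942 RPKM for the maternal lists. All 8 measured blood cell markers, hemoglobins included, were at 0 in all 3. Of 18 markers of later lineages, Pou5f1, the gene for Oct4, was at 52.6, 23.2 and 112 RPKM, and Sall4, a pluripotency factor, at 19.99, 2.08 and 15.7 RPKM. Both are also stored in the egg. The remainder of that list was below 1 RPKM in all 3, except for Gata4 at 2.45 RPKM in control 3 and Elf5 at 1.03 RPKM in control 2.

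The spread between the controls was large. Over the 7431 entries with a mean of at least 1 RPKM, the median SD of log2(RPKM+1) across the 3 embryos was 2.40, whereas the counting of reads alone would have given a median of 0.07. That figure covers neither the sampling of 2 of 9 µl of RNA nor the PCR, so it is a lower limit on technical spread. By mean level, the median SD was 1.83 from 1 to 10 RPKM, 2.90 from 10 to 100, 1.74 from 100 to 1000 and 3.61 among the 22 entries at 1000 or more. In that last group 10 entries had been scaled to under 300 bases, and the other 12 had a median SD of 0.54. Just 235 entries (3.16%) lay within a factor of 2 in all 3 embryos.

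**Figure D3:**
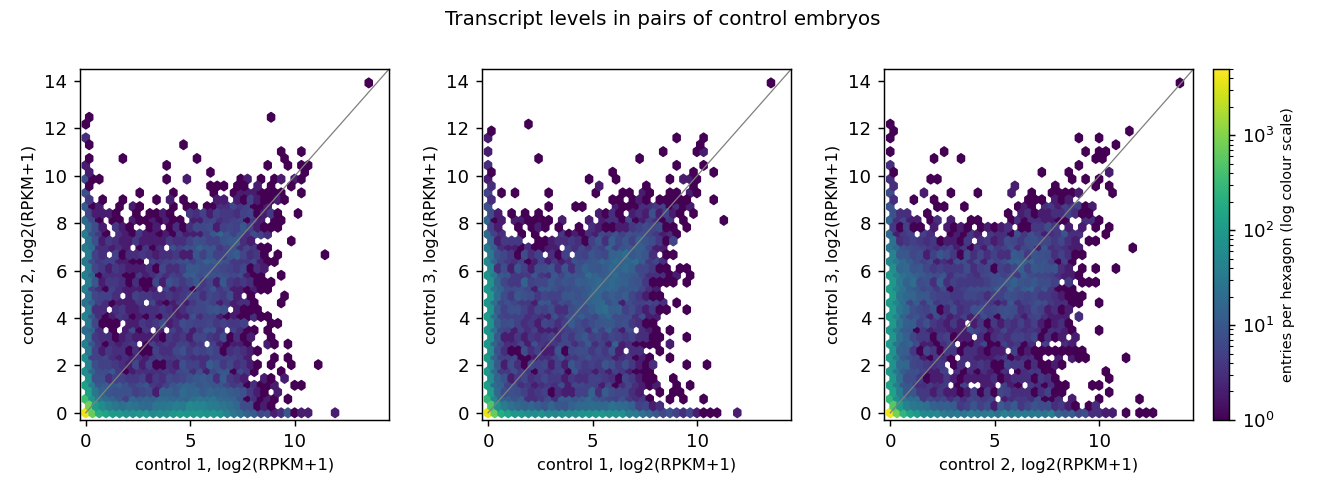
Levels of all 25650 transcript entries in pairs of control embryos, both axes log2(RPKM+1), with the number of entries per hexagon on a logarithmic colour scale and the diagonal in grey. Ccdc82 stands alone at the upper right, and many entries lie along the axes, at high level in 1 embryo and near 0 in the other.

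In each pair, few entries were shared at the threshold and their levels were weakly correlated. Controls 1 and 2 shared 2462 entries (37.6% of those detected in either), controls 1 and 3 shared 3235 (43.7%), and controls 2 and 3 shared 2513 (37.3%). Across these shared entries, which are not independent replicates, Spearman's correlation was 0.252, 0.328 and 0.236, and the median absolute difference was 1.86, 1.48 and 1.87 on the log2(RPKM+1) scale. The pair without control 2 was the closest by each of these measures.

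Many transcripts missing from an embryo were well counted in another. Of the 4140 entries with at least 1000 reads in some control, 1621 (39.2%) had at most 3 reads in another and 995 (24.0%) had none there. Only 526 (12.7%) had at least 1000 reads in all 3. Over all entries, the share found again in another control averaged 46.5% of those at 1 to 10 RPKM in 1 embryo, 59.3% at 10 to 100, 73.1% at 100 to 1000 and 64.0% at 1000 or more, so it rose with level except in the highest range. For entries scaled to 300 bases or more, the corresponding means were 47.6%, 59.9%, 75.04% and 88.9%. The highest range held only 9 to 15 such entries per embryo. In 1 of the 6 ordered pairs the share did not rise at the top, where 66.7% of the highest entries of control 2 were found in control 1.

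**Figure D4:**
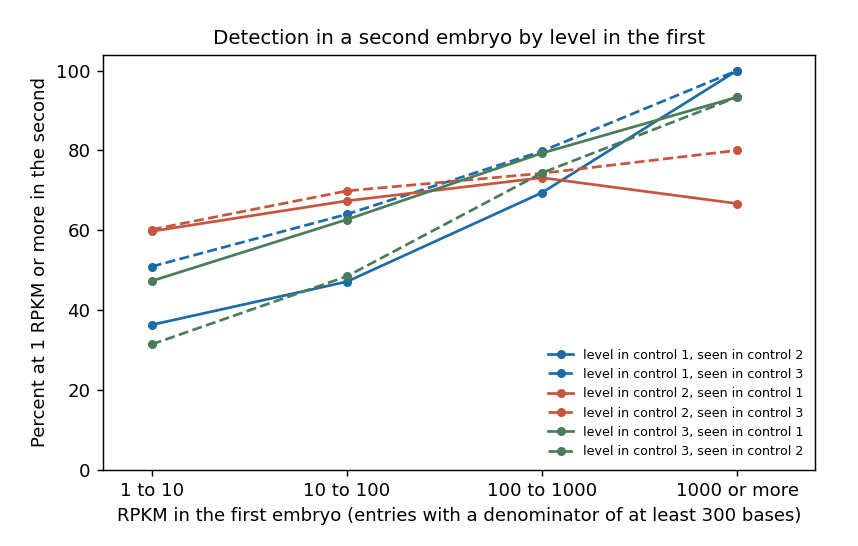
Percent of entries at 1 RPKM or more in a second control embryo (vertical axis), by their RPKM in a first (horizontal axis, 4 ranges), for entries scaled to at least 300 bases. Each line is 1 ordered pair of embryos; the means over the 6 pairs rise from 47.6% to 88.9%.

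Among genes with a mean of at least 100 RPKM, the narrowest was Tent4a (chr13:69636837-69672717, mm9), with an SD of 0.03 on the log2(RPKM+1) scale. Its 2 entries were each steady, at 401, 318 and 433 RPKM and at 508, 553 and 440 RPKM. It was followed by Rmnd5a, part of a ubiquitin ligase, at 156, 140 and 148 RPKM (SD 0.07), Tlcd2 (SD 0.08), Cnot7 (SD 0.08) and Foxn2, a forkhead gene, at 123, 121 and 109 RPKM (SD 0.09). Of these, Tent4a encodes an enzyme that extends RNA tails and Cnot7 one that shortens them. The widest were Ndufs8 and Tubd1, given above, and Tecr, Tnk2 and Dppa4. Tecr, an enzyme of fatty acid elongation, had 0, 391 and 3697 RPKM, but different entries carried controls 2 and 3. Tnk2, a tyrosine kinase, had 17.7, 4156 and 0.119 RPKM, the peak resting on an entry of 141 bases.

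Entries shared by the controls were also the most often detected in the other 11 embryos. An entry of all 3 controls reached 1 RPKM in a median of 10 of the 11, and 848 of the 1984 (42.7%) did so in all 11. For entries of exactly 2 controls the median was 7, and for those of only 1 control it was 3. Of the 3987 single-embryo entries, 724 (18.2%) were in none of the 11, and 3263 were therefore met again in at least 1 other embryo.

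At 1 RPKM, single-embryo transcripts were met somewhat more often in the same sequencing pool. Those found only in control 1 reached 1 RPKM in 34.5 ± 7.65% of cases (SD, n = 4) in embryos of its own pool and in 28.5 ± 11.2% (n = 7) in embryos of other pools. For control 2 the values were 37.2 ± 7.73% (n = 5) and 25.3 ± 5.72% (n = 6), and for control 3 they were 32.1 ± 8.36% (n = 2) and 28.8 ± 10.99% (n = 9). The ranges overlapped, but within each of the 11 embryos the highest of the 3 shares belonged to the control of its own pool, if only narrowly for 1 embryo (34.6% against 34.5%). Over the 3 controls the mean shares were 35.3% in the same pool and 27.8% in other pools, but with single-embryo entries defined at 5 RPKM they were 28.3% and 27.4%. Across the levels of all entries, Spearman correlations were 0.661 to 0.754 between a control and embryos of its pool and 0.594 to 0.654 with the rest. Pools also differed in which treatments they held, and whether pool, lane or embryo collection sets this pattern was not tested.

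**Figure D5:**
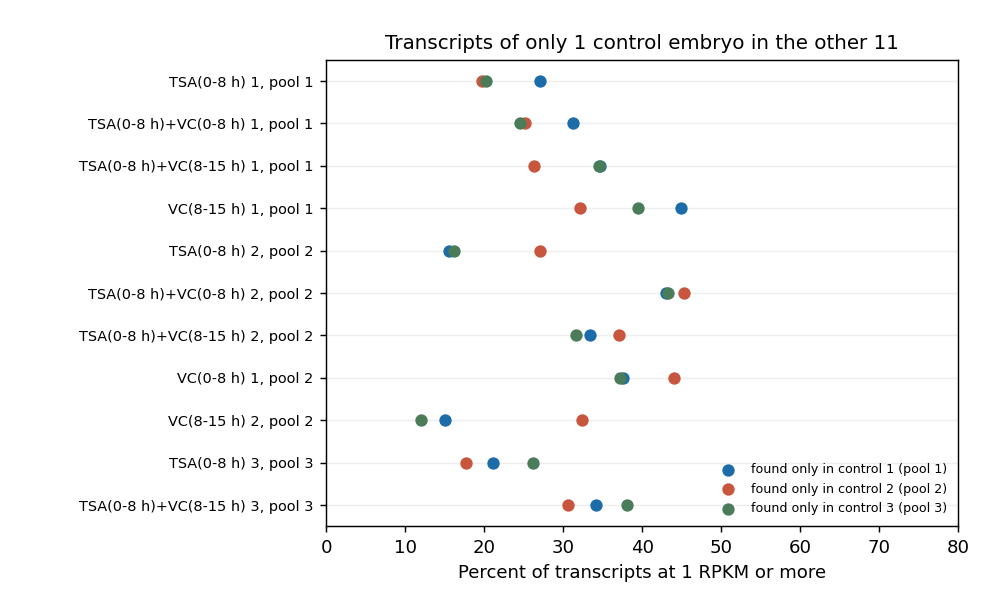
Percent of the transcripts found in only 1 control embryo that reached 1 RPKM in each of the 11 other embryos (horizontal axis), with 1 point for each control. In every row the rightmost point is that of the control from the same pool, for example 32.4% for control 2 in VC(8-15 h) 2 against 15.1% and 12.0%.

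The promoters differed between the detection classes. The median number of CG dinucleotides per 300-base window was 25 for the 1606 matched genes detected in all 3 controls, 23 for those in exactly 2, 20 for those in only 1 and 5 for the 6750 genes at 0 in all 3. TATAAA was present in 5.36% of the first group (95% Wilson interval 4.36 to 6.57), 6.20% of the second, 7.43% of the third and 20.5% of the undetected genes (19.5 to 21.5). CACGTG was found in 10.96%, 11.1%, 10.4% and 5.94% of the 4 groups. By these windows Tent4a, with 54 CG, belonged to the CG-rich end of the shared genes, and Omt2a, with 1, to the other. The Tent4a window may hold coding sequence, as given above.

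The listed genes were CG-poor by comparison with the detected genes. The 76 matched maternal genes had a median of 6.5 CG, and 7.89% (3.67 to 16.2) held TATAAA, a share whose interval includes those of all 3 detected classes. The 36 matched newly made genes had a median of 2 CG, and 12 of them (33.3%, 20.2 to 49.7) held TATAAA, among them Zscan4c. GGATTA was present in 8 of the 36 (22.2%, 11.7 to 38.1) against 6.42% of all matched genes. Near-identical copies within the families share their promoters, so the genes are not independent, and a match gives letters only, not a bound site.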

How the data were processed

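Single-embryo total RNA was sequenced from 3 control and 11 treated embryos. Per the study's methods, the authors trimmed the 50-base single-end reads, mapped them to mm9 with TopHat2 (named in the submitters' processing notes) using UCSC exon locations, and deposited RPKM values scaled to total counts and transcript length. Tool versions and the handling of reads that map to several places are not given in the sources used here. The sequencing pool came from the library identifiers of the deposited tables, and the lane from their column headers.

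The lowest RPKM values in each embryo moved in whole-read steps. Library totals, scaling lengths and reads were recovered from these steps, and the recovered reads summed to between 99.92% and 99.97% of the recovered totals of the 3 controls. The recovery was tested on simulated data. Reads are summed over entries, and a read may be counted for more than 1 entry of a gene. Entries were joined to symbols through RefSeq, and entries of a gene were summed for the gene lists. A pseudocount of 1 RPKM was used on the log2 scale. Gene positions are from the mm9 GENCODE annotation, where the symbol was found. Python 3.11.15, numpy 2.4.6, pandas 2.3.3 and scipy 1.17.1 were used.

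With 1 condition no test between groups was made, and values are given per embryo or as mean ± SD. The labels call the controls separate embryos, so the spread includes embryo, library and pool. The members and gene lists were chosen with earlier results of these data known. Genes were named by rule: the 25 highest by median RPKM, the 5 highest found in only 1 embryo for each embryo, the 5 widest and 5 narrowest by SD of log2(RPKM+1) among genes with a mean of at least 100 RPKM, and members of the lists that reached 1 RPKM, with the 6 highest of each list by median in full. Listed genes at 0 or below 1 RPKM in all 3 embryos were named after their values were seen. Alternatives changed the threshold, depth, gene summing, pseudocount, filter and scaling, and left out each embryo. Not every gene that the rule names is reported here.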

Additional observations from a re-analysis of the deposited data

How the results depend on the processing

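The number of entries detected in all 3 controls (1984) was 3787 at 0.1 RPKM, 1259 at 5 RPKM and 3733 at 3 or more recovered reads, and 2462 to 3235 with 1 embryo left out, the highest without control 2. The first 100 entries held 23.7% of the summed RPKM when ordered by the mean, 21.9% when summed by gene, and 24.5 to 27.8% with 1 embryo left out, in place of 19.4%. The 10 newly made genes of all 3 controls became 26 at 0.1 RPKM and 6 at 5 RPKM, and 12 to 20 with 1 embryo left out, again the highest without control 2. The median SD of 2.40 was 3.58 with a pseudocount of 0.1 RPKM, 1.08 with no filter, 2.87 for means of at least 10 RPKM, 2.18 after quantile normalization, and 2.03 to 2.40 with 1 embryo left out. The share of single-embryo transcripts met in the same pool moved from 35.3% (27.8% in other pools) to 43.7% (24.5%) at 0.1 RPKM and to 28.3% (27.4%) at 5 RPKM, where the difference between pools was nearly gone. The cause of these shifts was not tested, beyond the change of threshold or of embryos itself. Of the planned values, 34 were counted as unchanged, among them the counts of maternal genes in all 3 and of entries in only 1 embryo. So were 7 values from alternatives chosen after seeing the data: entries scaled to at least 300 bases, and reads of all entries of a gene over their summed lengths. The limit was 1 SD for some results and a factor of 1.5 for others, so some of the shifts above lie within a factor of 1.5. Some ranges with 1 embryo left out also hold values counted as unchanged. No paired analysis was possible because the results come from no test and from 1 condition.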

Other observations

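Lists of genes of basic cell functions were set beside all genes, of which 9.52% were in all 3 controls and 36.4% in at least 1. For oxidative phosphorylation these shares were 6.19% and 37.1%, for ribosomal proteins 18.5% and 77.8%, and for the proteasome 10.3% and 64.1%. Of 97 oxidative phosphorylation genes, 6 were at 1 RPKM or more in all 3 controls, 25 in only 1 and 61 in none. That list was drawn by gene name and also holds assembly factors and tissue-restricted forms. Atp5a1, a subunit of ATP synthase, was at 296, 286 and 51.2 RPKM, and Ndufa9, of complex I, at 55.8, 86.8 and 156 RPKM. Of 81 cytoplasmic ribosomal protein genes, 15 were in all 3, 23 in 2, 25 in 1 and 18 in none. Rps27l was at 512, 362 and 23.3 RPKM and Rpl28 at 225, 960 and 1.34 RPKM. The list took 0.297%, 0.399% and 0.132% of the reads, the lowest share being in control 3, which had the highest share for the maternal lists. Of 39 proteasome subunit genes, 4 were in all 3 and 14 in none, with Psma3 at 157, 211 and 21.7 RPKM. Ribosomal protein genes have many near-identical pseudogene copies that can share their reads, so single members are uncertain.

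Replication-dependent histone genes, whose mRNA ends without a poly(A) tail, were detected in all 3 controls in 5 of 61 cases. H2bc12 was at 655, 885 and 826 RPKM. H2ac18 was at 226, 123 and 1405 RPKM and its near-identical neighbour H2ac19 at 200.3, 108 and 1232 RPKM. The list took 0.0784%, 0.0945% and 0.263% of the reads.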
